A study of Mus musculus with 3 samples.

Results

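The genes described here encode core proteins of the spliceosome and the heterogeneous nuclear ribonucleoproteins (hnRNPs). They are the protein-coding genes of GENCODE M21 whose names begin with Snrp, Sf3a, Sf3b, Prpf or Hnrnp followed by letters or digits only. The rule found 54 genes among 22028 protein-coding genes: 20 hnRNP genes, 13 PRPF genes, 9 SF3A and SF3B genes, 8 genes of the Sm ring and 4 genes of other U1 and U2 snRNP proteins. The rule used names and no measured levels, although it was chosen with earlier results of these data known.

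RNA was taken from the chromatin fraction of bone-marrow-derived macrophages of C57BL/6J mice, which are primary cells grown from marrow, and sequenced after removal of ribosomal RNA. There was 1 group of 3 libraries. All 3 had received Lipid A, the toll-like receptor 4 ligand of bacterial lipopolysaccharide, at 100 ng/ml for 12 h, then a washout of 12 h, then Lipid A again at 100 ng/ml for 25 min. No other treatment or untreated sample was analysed here, so every value below is a level within this state and no test between conditions was possible. The labels call the libraries biological replicates but give them the same donor identifier, so the spread between them may be in part technical. Errors are SDs over the libraries (n = 3).

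Introns are removed by the spliceosome, which is built from small nuclear RNAs and their proteins. Sm proteins form a ring around most of these RNAs, the SF3A and SF3B complexes belong to the U2 particle that recognises the branch point, and PRPF proteins act in the U4/U6.U5 tri-snRNP and in later steps. hnRNPs coat nascent RNA and steer the choice of splice sites. Several splicing factor genes are known to limit their own protein by making transcripts with a retained intron or with an exon that carries a premature stop codon, a so-called poison exon. RNA on chromatin includes precursors that are still being spliced. A read in an intron may come from such a precursor or from a finished transcript that keeps the intron, and these tables cannot tell the sources apart.

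Annotated genes received 13502401, 17848798 and 17824176 expected counts in replicates 1, 2 and 3, whose starting RNA was 1 µg, 250 ng and 500 ng. The 54 genes took 106807, 103000 and 118809 of these counts, which was 1.11% ± 0.05 of the counts on protein-coding genes. Macrophage markers were detected for 10 of 10 genes, with a summed level of 1388 to 1452 TPM, an abundance scaled for transcript length. Of the markers of other cells, Cd4 of 5 T cell genes, Alas2 of 4 erythroid genes and Kdr and Pecam1 of 4 endothelial genes were detected. None of 4 B cell, 5 neutrophil or 5 fibroblast genes was. The highest summed level of these lists in any library was 11.5 TPM. Detected means here 1 TPM or more in all 3 libraries.

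The sequences that follow show what the transcript classes discussed below hold. First come short introns that an annotated noncoding transcript of a member keeps whole and that lie between coding exons of another transcript of the same gene. They were chosen for a length of at most 300 bases and for their genes' place in the results. Capitals mark the first 6 bases of the intron, its last 2 bases and the first stop codon in the reading frame that enters from the upstream exon. Sequences are 5′ to 3′ on the gene's strand, from the GENCODE M21 transcripts on GRCm38 (mm10).
Hnrnpa2b1, chr6:51466223-51466302, minus strand: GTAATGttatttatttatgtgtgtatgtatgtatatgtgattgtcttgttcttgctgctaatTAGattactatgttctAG
Hnrnpa2b1, chr6:51467296-51467390, minus strand: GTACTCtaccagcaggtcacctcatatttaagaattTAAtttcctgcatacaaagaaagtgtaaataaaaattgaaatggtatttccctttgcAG
Hnrnpk, chr13:58393775-58393852, minus strand: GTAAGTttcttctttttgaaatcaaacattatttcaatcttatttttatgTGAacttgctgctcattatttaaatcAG
Hnrnpa3, chr2:75661818-75661895, plus strand: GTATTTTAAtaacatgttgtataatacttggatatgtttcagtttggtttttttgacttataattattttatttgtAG
Hnrnph1, chr11:50383740-50383830, plus strand: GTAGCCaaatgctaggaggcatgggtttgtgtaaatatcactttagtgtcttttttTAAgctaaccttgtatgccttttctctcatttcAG
Prpf38b, chr3:108907848-108907931, minus strand: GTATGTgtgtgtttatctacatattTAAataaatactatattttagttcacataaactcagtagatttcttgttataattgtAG
Hnrnpl, chr7:28821274-28821391, plus strand: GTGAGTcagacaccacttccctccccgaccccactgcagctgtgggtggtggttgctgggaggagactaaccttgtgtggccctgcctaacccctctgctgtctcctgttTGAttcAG

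In Hnrnpa3 the stop codon follows the first 6 bases directly. Over all members, noncoding transcripts held 52 such whole introns in 27 genes, of a median length of 374 bases. Of these, 51 began with GT and ended with AG. The exception is a stretch of Hnrnpd that begins with GC. Among the 47 introns that lie within a coding sequence, 46 carried a stop codon in frame. The exception lies in Prpf19. Some of the 52 overlap one another, because transcripts of a gene differ in the splice site they use.

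Next are internal exons of transcripts of the annotation's class nonsense-mediated decay, the pathway that destroys messages with a premature stop codon. They overlap no exon of a protein-coding transcript of the gene, and the other noncoding classes were not compared. The Sf3b1 exon lies within an intron that the retained-intron transcript Sf3b1-203 keeps whole. Capitals mark the stop codon that is in frame. In each of these 4 the coding part of the transcript ends at the marked stop codon, so the rest of the exon lies after it.
Hnrnpll, chr17:80044940-80045022, minus strand: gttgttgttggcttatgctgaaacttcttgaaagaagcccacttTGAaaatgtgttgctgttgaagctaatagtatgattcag
Hnrnpl, chr7:28817335-28817404, plus strand: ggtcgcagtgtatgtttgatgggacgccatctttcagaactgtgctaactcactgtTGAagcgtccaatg
Prpf38b, chr3:108910343-108910395, minus strand: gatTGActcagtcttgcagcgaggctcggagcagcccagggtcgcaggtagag
Sf3b1, chr1:55014869-55014924, minus strand: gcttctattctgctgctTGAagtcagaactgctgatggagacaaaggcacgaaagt

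There were 20 such exons in 13 member genes. A stop codon was sought only in exons that hold part of the coding sequence, and 11 exons held one in frame. The exons with the most TPM were not searched, as they lie outside the coding part. Among them are an Hnrnpu exon of 94 bases (75.1 ± 6.95 TPM) and an Hnrnpa1 exon of 76 bases (73.4 ± 9.28 TPM). The transcript with the Hnrnpll exon stood at 9.77, 8.39 and 9.05 TPM in replicates 1 to 3, which was 13.8% ± 0.79 of the gene. Its values were close together in the 3 libraries. The transcript with the exon of Hnrnpl, the paralogue of Hnrnpll, stood at 6.31, 10.8 and 8.34 TPM, or 4.70% ± 0.63 of its gene. For Prpf38b the values were 33.1, 7.89 and 28.2 TPM, with replicate 2 well below the others. For Sf3b1 they were 3.58, 1.11 and 1.48 TPM, or 0.88% ± 0.45 of the gene.

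Nearly all of the 54 genes were present on chromatin, and the hnRNP genes stood highest. At 1 TPM or more in all 3 libraries, 51 of 54 members were detected (94.4%), against 44.0% of protein-coding genes. The members not detected were Snrpf, Snrpn and Sf3b5. In all 3 libraries, 11 members stood at 100 TPM or more, against 1.69% of protein-coding genes. They were 8 hnRNP genes, the PRPF genes Prpf38b and Prpf4b, and Sf3b1. On the log2(TPM + 1) scale the median level of the 54 was 4.33 ± 0.14. The 51 detected members exceeded the 9689 detected protein-coding genes by 0.98 ± 0.19 on that scale, with differences of 1.20, 0.82 and 0.93 in replicates 1 to 3.

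**Figure D1:**
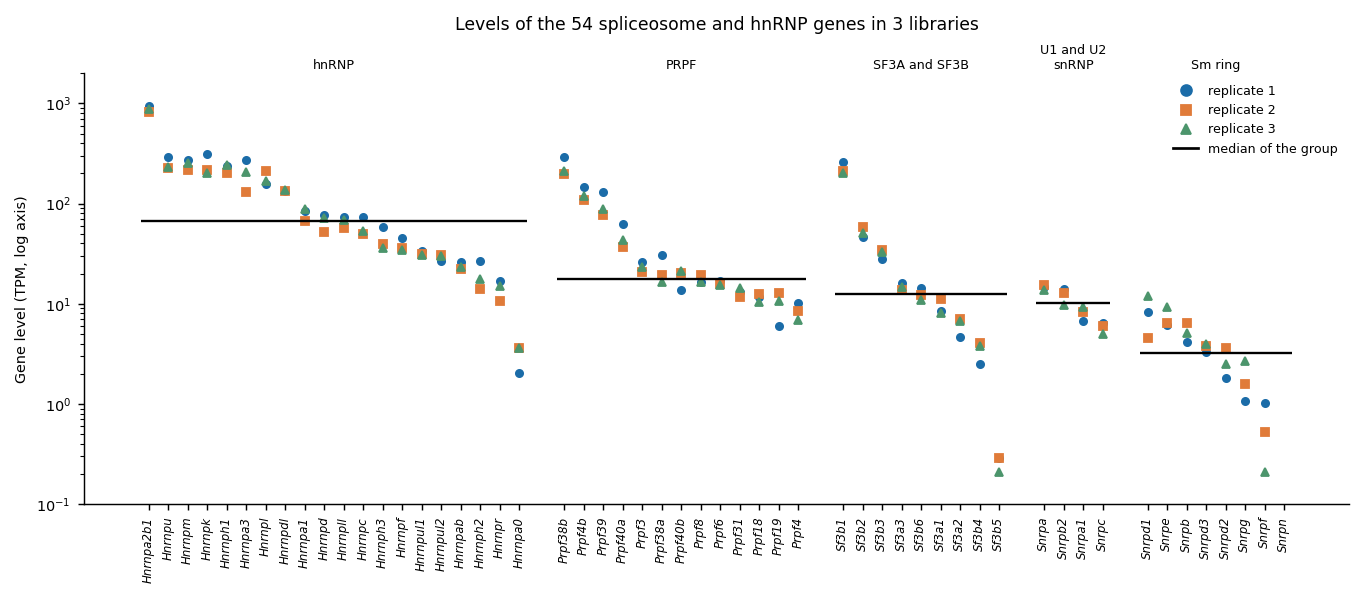
Level of each gene in TPM (log axis) in replicates 1 to 3, grouped by role, with each group's median as a line. The hnRNP median lies at 66.4 TPM and the Sm ring median at 3.21 TPM, and Snrpn, at 0 in each library, has no point.

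The hnRNP genes stood above the other role groups and the Sm ring below them by more than the libraries differed, while the 3 groups between lay close together. The median of the hnRNP genes was 74.9, 54.5 and 69.7 TPM in replicates 1 to 3, and that of the other 34 members was 12.5, 12.4 and 10.7 TPM. The lowest hnRNP median lay well above the highest of the others. The difference was 2.38 ± 0.29 on the log2(TPM + 1) scale, positive in 3 of 3 libraries. Median levels on that scale were 4.21 ± 0.13 for PRPF genes, 3.75 ± 0.18 for SF3A and SF3B genes, 3.45 ± 0.06 for U1 and U2 snRNP proteins and 2.05 ± 0.22 for the Sm ring. PRPF genes exceeded SF3A and SF3B genes by 0.21, 0.63 and 0.54, which is a small step in replicate 1. SF3A and SF3B genes exceeded the Sm ring by 2.13, 1.49 and 1.48, so this step was large in each library.

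Hnrnpa2b1, whose protein binds nascent RNA and sorts RNA for transport, had the highest level of the members. It stood at 948, 819 and 870 TPM in replicates 1 to 3 (chr6:51460932-51469894), a mean of 879 ± 65.4 and rank 11 among protein-coding genes. No other member came near it in any library. Hnrnpu, which encodes a chromatin-associated scaffold protein, stood at 291, 225 and 230 TPM (chr1:178321108-178337797). Hnrnpm stood at 271, 216 and 252 TPM (chr17:33646233-33686860). The libraries of these 2 genes overlapped, so their order is not resolved.

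The next hnRNP genes formed a close series. Hnrnpk, which encodes a protein that binds stretches of C, stood at 313, 216 and 203 TPM. Hnrnph1, whose protein binds runs of G, stood at 239, 201 and 241 TPM. Hnrnpa3 stood at 272, 130 and 206 TPM, the widest of these ranges, with replicate 2 lowest. Hnrnpl, which encodes a protein that binds CA repeats, stood at 159, 211 and 166 TPM and had its highest value in replicate 2. Hnrnpdl was the most even, at 135, 132 and 135 TPM. At the lower end stood Hnrnpr at 17.0, 10.7 and 15.1 TPM and the gene of a single exon, Hnrnpa0, at 2.03, 3.65 and 3.62 TPM. All 3 libraries of Hnrnpa0 lay below all of Hnrnpr.

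PRPF genes ranged from 8.52 to 235 TPM on average, and all 13 were detected. Prpf38b led at 294, 198 and 211 TPM (chr3:108902805-108911727). Prpf4b, which encodes a kinase of the tri-snRNP, followed at 146, 109 and 119 TPM, and Prpf39, a homologue of a yeast U1 snRNP protein, at 131, 77.2 and 87.6 TPM. Replicate 1 was highest in each of these 3 genes. The lowest were Prpf19, a ubiquitin ligase of the activated spliceosome, at 5.97, 13.0 and 10.6 TPM, and Prpf4, a U4/U6 protein, at 10.2, 8.56 and 6.83 TPM. Their ranges overlapped. Prpf8, the scaffold at the heart of the catalytic centre, stood at 16.5, 19.2 and 16.4 TPM, well below Prpf38b in each library.

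Sf3b1, which encodes the largest SF3B subunit and clasps the branch point, stood apart from its partners at 260, 214 and 200 TPM (chr1:54985169-55027481). Sf3b2 was at 46.8, 58.5 and 51.3 TPM and Sf3b3 at 28.1, 34.1 and 32.7 TPM, with no overlap among these 3 genes. Sf3b4 stood at 2.51, 4.05 and 3.78 TPM. Sf3b5 was lowest at 0.29, 0.29 and 0.21 TPM, from 14, 17 and 13 counts. Subunits of 1 complex thus differed in chromatin RNA by orders of magnitude.

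Among U1 and U2 snRNP proteins, the U1 gene Snrpa stood at 14.6, 15.2 and 13.6 TPM. The U2 genes Snrpb2 and Snrpa1 stood at 14.1, 12.9 and 9.82 TPM and at 6.68, 8.35 and 9.25 TPM. The U1 gene Snrpc was lowest at 6.39, 5.93 and 5.01 TPM. This order held in each library. The ranges of Snrpa and Snrpb2 overlapped, and those of the other neighbours did not.

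The Sm ring genes had the lowest levels and rest on few reads, 231, 290 and 343 counts in all for 8 genes in replicates 1 to 3. Snrpd1 stood at 8.34, 4.57 and 12.0 TPM from 50, 26 and 74 counts, Snrpe at 6.17, 6.40 and 9.20 TPM, and Snrpb at 4.14, 6.47 and 5.16 TPM. These 3 overlapped. Snrpf was at 1.02, 0.53 and 0.21 TPM from 9, 5 and 2 counts. Snrpn, an imprinted paralogue of Snrpb best known from neurons, had 0 counts in each library, which allows up to 3 counts, or 0.222, 0.168 and 0.168 CPM, a count scaled to the depth of the library. The second quantification lists Snrpn at 0.25, 0.04 and 0.21 TPM. Snurf, which shares its locus, was listed at 0 in both. These limits cover counting error only, since the reads carry no molecular identifiers.

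Both deposited quantifications placed the hnRNP genes above the other members, while a few low genes differed widely between them. For 40 of the 53 members with a value above 0 in both, the second quantification was higher, with a median ratio of 1.23. For 49 members the ratio was within a factor of 2. These counts were not taken over all genes, so they do not set the members apart. The excess of detected members over detected genes was alike in both. It was 0.98 ± 0.19 in the first and 0.99 ± 0.10 in the second on the log2(TPM + 1) scale. The largest ratios were those of Sf3b5 (6.79), Snrpg (3.21), Sf3a2 (2.62) and Sf3b6 (2.01), followed by Snrpf and Snrpb (each 1.98). The level of Sf3b5 was 0.26 ± 0.05 TPM in the first and 1.79 ± 0.44 in the second, so its mean exceeded 1 TPM in the second only. The hnRNP genes still exceeded the other members by 2.19 ± 0.39 on the log2(TPM + 1) scale there. Hnrnpa1 and other hnRNP genes have processed pseudogenes, and how reads shared with those copies were divided is uncertain in both.

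**Figure D2:**
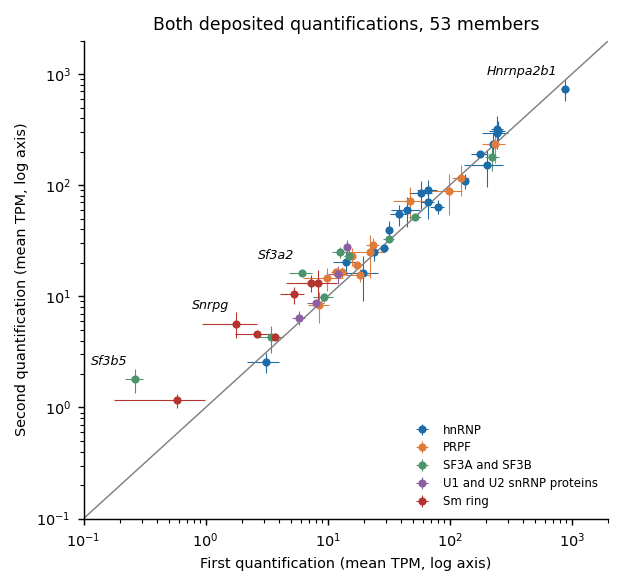
Mean TPM of 53 members in the first (x) and second (y) deposited quantification, both on log axes, with SDs over 3 libraries as bars and the line of equal values. Most points lie near the line, while Sf3b5, Snrpg and Sf3a2 lie above it with ratios of 6.79, 3.21 and 2.62.

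A large part of the members' RNA was assigned to transcripts that do not code for the full protein. Summed over the 54 genes, protein-coding transcripts held 35.6% ± 1.9 of TPM, retained-intron transcripts 44.9% ± 2.7, nonsense-mediated-decay transcripts 9.48% ± 0.85 and processed transcripts, a class with no open reading frame, 10.0% ± 0.77. Over detected protein-coding genes these shares were 49.5%, 37.5%, 4.21% and 8.84%. TPM weights short transcripts more than counts do. By expected counts the members' shares were 49.9%, 31.4%, 11.0% and 7.78%, against 68.7%, 23.9%, 3.95% and 3.46% over detected genes. On both scales the coding share of the members was the lower one in these sums, which the highest genes dominate.

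**Figure D3:**
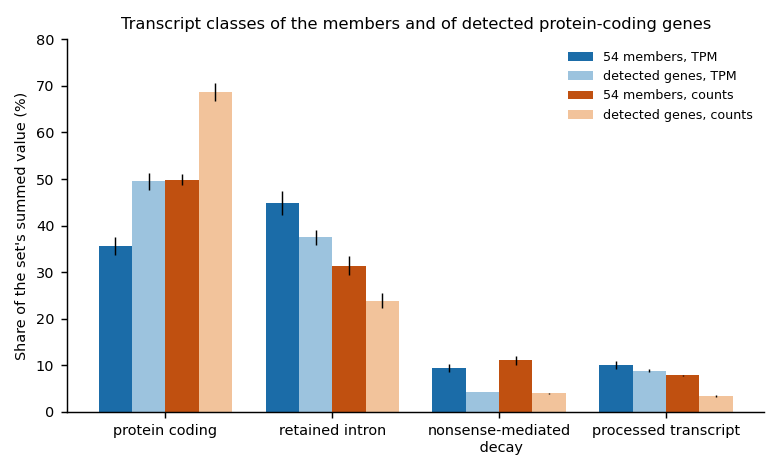
Share of summed TPM or of summed expected counts in each transcript class, for the 54 members and for detected protein-coding genes, with SDs over 3 libraries as bars. The members' coding share is 35.6% by TPM and 49.9% by counts, against 49.5% and 68.7% over detected genes.

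Gene by gene, the median retained-intron share of the members was near that of other genes by TPM. By counts it was above, though not for the hnRNP genes. A retained-intron transcript is annotated for 39 of 54 members (72.2%), against 64.4% of detected genes. The share was taken for the 32 members with such a transcript, a coding transcript and 5 TPM or more for the gene in all 3 libraries. It had a median of 47.1%, 51.4% and 44.4% in replicates 1 to 3, a mean of 47.6% ± 3.5. Over 4726 eligible protein-coding genes it was 46.0% ± 2.4, so the members lay within the spread of the libraries. In all 3 libraries, 25 of 32 members (78.1%) had a share of 25% or more, against 75.0% of eligible genes. A share of 50% or more was seen in 9 members (28.1%), against 33.4%. Just inside the bound of 25% lay Hnrnpr, with 25.2% in its lowest library, and just outside it Prpf4b with 23.5%.

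By counts the median was 39.6%, 38.4% and 33.4% in replicates 1 to 3, a mean of 37.2% ± 3.3, against 29.0% ± 2.3 over eligible genes. On this scale the members' median lay above in 3 of 3 libraries, by more than the SDs, and 18 of 32 members (56.2%) passed 25% against 50.1%. The 14 eligible hnRNP genes went the other way. Their median was 21.4% ± 4.5 by counts and 36.3% ± 2.9 by TPM, below that of all eligible genes on both scales. By counts, 9 PRPF genes had a median of 39.5% ± 7.0 and 5 SF3A and SF3B genes one of 36.3% ± 3.4. The 4 genes of U1 and U2 snRNP proteins had 75.8% ± 5.2. By TPM these groups had 42.5% ± 5.2, 56.1% ± 8.5 and 50.7% ± 4.1. The mean PRPF median thus lay below the 46.0% of all eligible genes on that scale. The share by counts was below that by TPM in 26 of the 32 members. The 114 retained-intron transcripts of the members have a median length of 822 bases. Only 37 of them hold a whole intron of a coding transcript, and 111 have some bases outside all coding exons.

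**Figure D4:**
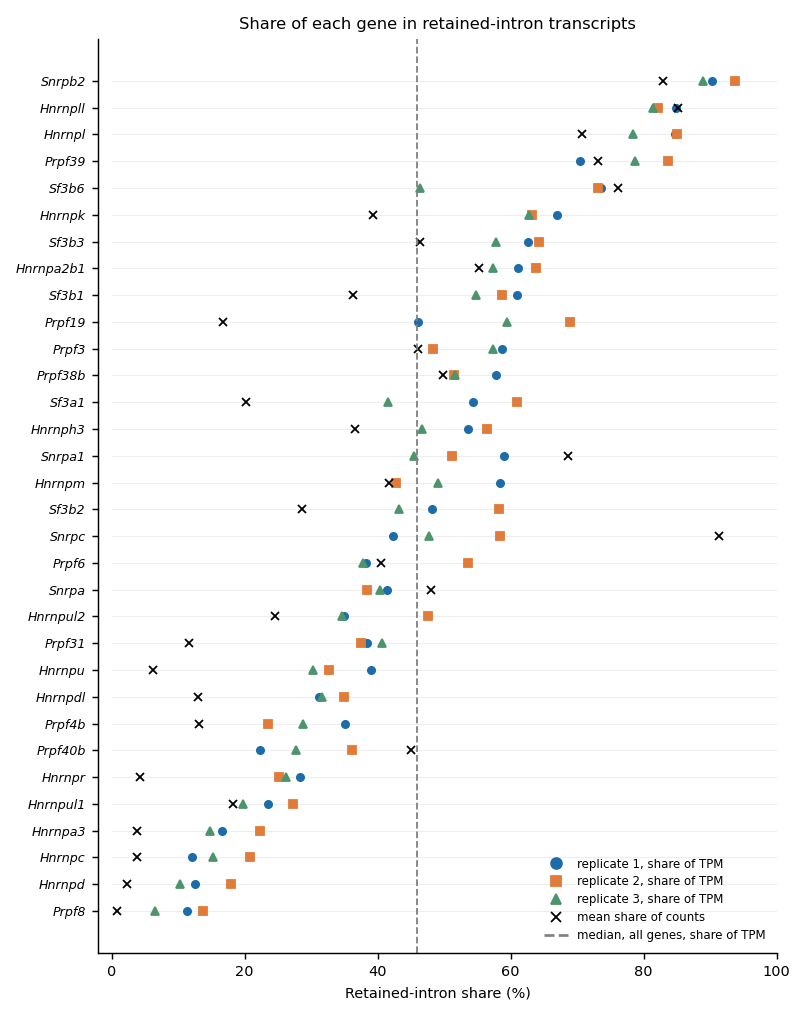
Retained-intron share of TPM (%) of the 32 eligible members in replicates 1 to 3, with the mean share of expected counts as crosses and the median over all eligible genes (46.0%) as a dashed line. Snrpb2, Hnrnpll and Hnrnpl lie highest, Prpf8 lowest, and the cross lies to the left of the mean of the points for 26 members.

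The members with the highest shares came from several roles. Snrpb2 stood at 90.4%, 93.8% and 88.9% in replicates 1 to 3. The paralogues Hnrnpll, a regulator of alternative splicing known from lymphocytes, and Hnrnpl stood at 84.9%, 82.2% and 81.4% and at 84.8%, 85.0% and 78.5%. These 3 genes kept high shares by counts too, at 82.9%, 85.1% and 70.8%. Prpf39 stood at 70.5%, 83.7% and 78.8%, or 73.1% by counts.

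The next 4 were lower and less alike. Sf3b6, the branch point protein p14, stood at 73.6%, 73.1% and 46.3%, with replicate 3 far below the others, and at 76.2% by counts. Hnrnpk stood at 66.9%, 63.2% and 62.7%, but at 39.3% by counts. Sf3b3 stood at 62.6%, 64.3% and 57.8%, and at 46.3% by counts. Hnrnpa2b1 stood at 61.0%, 63.8% and 57.4%, and at 55.3% by counts, so the member with the most RNA was also largely in this class on both scales.

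In Hnrnpa2b1, a single retained-intron transcript, Hnrnpa2b1-208, held 254, 232 and 232 TPM, or 27.3% ± 0.87 of the gene's transcripts. The intron of 156 bases that it keeps whole does not lie within the coding sequence, unlike the printed introns. The leading coding transcript, Hnrnpa2b1-202, held 129, 139 and 144 TPM, below Hnrnpa2b1-208 in each library. By counts the order was the reverse in each library, with 1897, 1900 and 2097 for Hnrnpa2b1-208, a transcript of 766 bases, and 2496, 3158 and 3527 for Hnrnpa2b1-202 of 1662 bases. The transcript with the printed introns of 80 and 95 bases, Hnrnpa2b1-213, held 78.3, 67.5 and 58.2 TPM. The transcript with the printed Prpf38b intron of 84 bases held 55.6, 42.2 and 41.4 TPM, or 19.9% ± 1.2 of its gene. In Hnrnpa3 the transcript with the printed intron of 78 bases held 45.1, 28.9 and 30.5 TPM.

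The lowest shares were those of Prpf8 at 11.3%, 13.8% and 6.48%, Hnrnpd at 12.6%, 17.9% and 10.2%, Hnrnpc at 12.0%, 20.8% and 15.3%, and Hnrnpa3 at 16.6%, 22.3% and 14.8%. By counts they were 0.80%, 2.34%, 3.87% and 3.84%. Hnrnpc encodes a protein that binds U tracts and Hnrnpd the AU-rich element binding protein AUF1. By TPM, replicate 2 was highest in each of these 4 genes. That held for 19 of the 32 members, and replicate 3 was lowest for 19. Such counts were not taken over all eligible genes. The median over all eligible genes had the same order, at 46.9%, 47.7% and 43.2% in replicates 1 to 3. The order by TPM is thus not particular to the members. By counts the order was another, with replicate 1 highest. The medians there were 39.6%, 38.4% and 33.4% for the members and 30.45%, 30.17% and 26.4% over all eligible genes. Replicate 2 had the smallest starting amount of RNA, and the part of that in the shares was not tested.

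For genes with no transcript of the class, a share of 0 is a fact of the annotation. Hnrnph1 is such a gene, yet 94.6% of its TPM lay in processed transcripts. The leading one, Hnrnph1-204, stood at 63.0, 42.3 and 56.8 TPM and holds 2 whole introns. Hnrnph1-213, with the printed intron of 91 bases, stood at 31.3, 23.7 and 34.9 TPM. With processed transcripts added to the class, the median over the 32 eligible members was 52.4% ± 5.8, against 52.0% ± 2.6 over eligible genes.

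The members had a higher median decay share than all eligible genes, and the highest shares were those of hnRNP and PRPF genes. A nonsense-mediated-decay transcript is annotated for 4574 of 22028 protein-coding genes, a set that includes genes not detected here. Detected genes alone were not counted, so this is no like background for the members. Of 54 members 22 have such a transcript, and 21 of these were eligible. Their median share was 8.38%, 11.7% and 10.1% in replicates 1 to 3, against 4.42%, 5.25% and 5.17% over 2329 eligible genes. The members' median lay above in 3 of 3 libraries, by more than the spread between them. The list of other spliceosome genes described below had 9.22% ± 2.8 over 26 eligible genes. In all 3 libraries, 4 of 21 members (19.0%) had a share of 25% or more, against 7.90% of eligible genes. A share of 50% or more was seen in 1 member, Hnrnpa1, against 1.59%. The count at 25% did not hold on other scales: by expected counts it was 2 of 21 (9.52%) against 9.15%, and in the second quantification 3 of 22 (13.6%) against 13.4%. The medians there were 7.01% ± 0.90 against 2.59% ± 0.21 and 12.2% ± 0.46 against 9.20% ± 0.29.

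**Figure D5:**
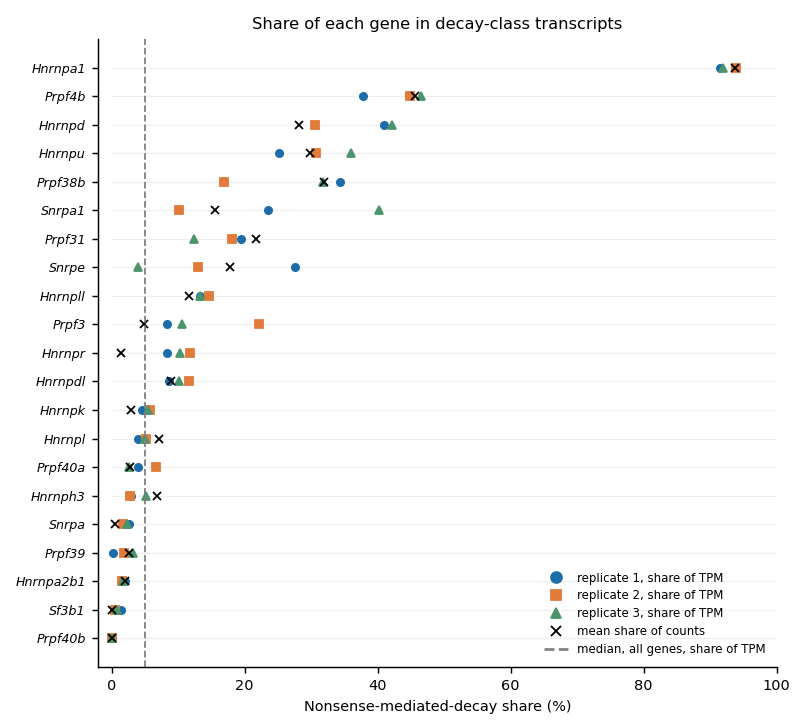
Nonsense-mediated-decay share of TPM (%) of the 21 eligible members in replicates 1 to 3, with the mean share of expected counts as crosses and the median over all eligible genes as a dashed line. Hnrnpa1 lies alone near 92.4%, followed by Prpf4b, Hnrnpd, Hnrnpu and Prpf38b.

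Hnrnpa1, a splicing repressor and one of the most abundant nuclear proteins, stood at 91.5%, 93.8% and 91.9%, apart from every other member. Its gene level was 84.2, 67.0 and 87.5 TPM (chr15:103240432-103246692). The decay transcripts Hnrnpa1-203 and Hnrnpa1-204 stood at 41.5 ± 8.05 and 31.9 ± 2.65 TPM, while the leading coding transcript, Hnrnpa1-202, stood at 6.06 ± 1.88. Both decay transcripts share an exon of 76 bases that no transcript of another class has and that lies outside their coding part. The second quantification gave a decay share of 84.2%.

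Prpf4b stood at 37.8%, 44.9% and 46.5%, and its leading decay transcript Prpf4b-208 at 44.7 ± 3.94 TPM. Hnrnpd stood at 41.0%, 30.6% and 42.1%. Hnrnpu stood at 25.2%, 30.8% and 36.0%, nearly all in Hnrnpu-206 at 72.5 ± 7.88 TPM, beside 44.8 ± 7.40 TPM for its leading coding transcript, Hnrnpu-201. By counts the coding transcript was ahead in each library, with 51.4% of the gene against 29.9%. The decay shares of neighbours in this order overlapped. Prpf38b stood at 34.4%, 16.9% and 31.8%, with replicate 2 lowest. By counts these 4 genes were at 45.6%, 28.2%, 29.8% and 32.0%.

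Replicates differed modestly for these genes. The median biological coefficient of variation (BCV, the spread between replicates beyond counting noise, from edgeR) was 0.182 over 52 members fitted, against 0.203 over 14193 genes. Of the members, 15 lay above that median. These values per gene are pulled strongly toward a common value, so they understate how far genes differ. A single dispersion fitted over all members, with no such pull, gave 0.149, against 0.209 over all genes fitted and 0.190 over protein-coding genes. The members with the highest BCV were Snrpd1 (0.312), Snrpd2 (0.268), Hnrnpa0 (0.252) and Prpf38a (0.228), of which the first 3 are low genes. The lowest were Hnrnpul1 (0.163), Hnrnpdl (0.165) and Prpf8 (0.169). Hnrnpul1 stood at 34.0, 31.4 and 30.8 TPM and Prpf38a at 30.7, 19.6 and 16.4 TPM.

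In TPM, replicate 1 was highest for 27 of the 51 detected members (52.9%), against 41.6% of detected genes. With TMM-normalised counts, replicates 1, 2 and 3 were highest for 20, 13 and 19 of the 52 members fitted, against 37.8%, 34.8% and 27.4% of all genes fitted. The genes counted differ between these scales as well. Level and gene length had a Spearman correlation of 0.27 over 51 members and 0.22 over 9689 detected genes. Level and retained-intron share had one of 0.03 over 32 members and 0.08 over 4726 genes. The genes of each correlation share libraries and depth, and the values are descriptions.

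Other spliceosome genes, 73 in a list that the name rule does not reach, resembled the members in level. Of these 71 were detected, with a median of 4.48 ± 0.16 on the log2(TPM + 1) scale. Among the highest were Luc7l2 (351 ± 35.3 TPM) and Luc7l3 (197 ± 35.0), homologues of a yeast U1 snRNP protein, the RNA-binding protein gene Rbm25 (274 ± 39.9), and Snrnp70 of the U1 snRNP (178 ± 6.49). Their median retained-intron share was 55.5% ± 3.6 over 48 eligible genes, and 25 of 48 (52.1%) passed 50% in every library. Among the highest shares were those of Bud31 (85.1% ± 0.09), the 3′ splice site factor gene U2af1 (83.2% ± 3.5), Ik (79.9% ± 2.5) and Rbm22 (78.8% ± 7.1). In each library this median lay above that of the members, at 54.6%, 59.4% and 52.4% in replicates 1 to 3. By counts the median of the list was 41.8% ± 2.2, against 37.2% ± 3.3 for the members.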

How the data were processed

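Chromatin-fraction RNA of 3 libraries (1 group) was analysed. Per the file headers, the gene tables and first transcript tables deposited by the authors hold expected counts and TPM in columns named as RSEM names them, and the second transcript tables hold estimated counts and TPM named as kallisto names them. The deposited notes give mm10 and GENCODE M21. Not given in the sources used here: the aligner, its version and any use of strand, so overlapping genes are uncertain. Of 81881 rows per gene table, 55536 annotated genes were used. The other rows held 1.75%, 0.396% and 0.239% of expected counts.

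Levels are TPM, with a pseudocount of 1 for log2. A class share is the summed TPM of a gene's transcripts of that annotated class over that of all its transcripts, for genes at 5 TPM or more in all 3 libraries. Expected counts were rounded for edgeR 4.0.16 (R 4.3.3): filterByExpr, TMM, then estimateDisp with an intercept only. The scripts were tested on simulated data. There the BCV per gene recovered the common spread but not that of more variable genes, so 1 dispersion fitted over a set, which came close to both, was added after seeing this. DESeq2 1.42.0 gave alternative size factors. Python 3.11.15, numpy 2.4.6, pandas 2.3.3 and matplotlib 3.10.9 were used. Genes named are the 3 highest and 2 lowest per role by level, the 8 highest and 4 lowest by retained-intron share, the 5 highest by decay share, the 4 highest and 3 lowest by BCV, the 6 with the largest ratio between quantifications, and the top 5 other spliceosome genes by level and by share, of which 1 gene is not reported here. Hnrnph1 was named after its values were seen. The members and lists were chosen with earlier results of these data known.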

Additional observations from a re-analysis of the deposited data

How the results depend on the processing

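The level differences kept their sign under each alternative run. The count of members by retained-intron share lay above the background at 25% (78.1% against 75.0%) and below it at 50% (28.1% against 33.4%), or at 25% with processed transcripts added (81.2% against 82.0%). Without 1 replicate, the members detected stayed at 51, the median level lay between 4.26 and 4.41, the excess over detected genes between 0.92 and 1.09 and that of hnRNP genes between 2.27 and 2.54 (log2). The median retained-intron share lay between 46.0% and 49.3%, the members at 25% or more between 25 and 27, the median decay share between 9.23% and 10.0%, and the median BCV between 0.152 and 0.233. With the second quantification 53 members were detected, as Snrpf and Sf3b5 passed the bound there and Snrpn did not. The same counts over all genes were not taken without 1 replicate, nor was detection in the second quantification. These counts of members therefore do not set them apart. The median level was 4.55 with detected members only and 4.65 with the second quantification. The median retained-intron share was 51.2% at a gene TPM of at least 20, and, in alternatives chosen after seeing the data, 37.2% by expected counts and 52.4% with processed transcripts added. With a bound of 50% in place of 25%, 9 members passed. The median decay share was 12.2% with the second quantification and, chosen after seeing the data, 7.01% by counts. Of 39 members named, the level moved by over 1 SD for 25 with the second quantification. Of 12 named retained-intron shares, 10 moved by over 1 SD by counts. The cause of these moves was not tested. The Sm ring levels are limited by depth, with 2 to 87 counts per library for the genes above 0. No paired analysis was possible because all libraries belong to 1 group.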
